A study of Mus musculus with 8 samples.

Results

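The genes described here are inhibitors of lysosomal cysteine proteases: the stefins of the mouse myeloid cluster (Stfa1, Stfa2, Stfa3, Stfa2l1 and BC100530), cystatin B (Cstb) and cystatin C (Cst3). They were chosen by symbol, as all probes of these 7 genes on Illumina MouseRef-8 v2 bead arrays. Of the 7 genes, 5 had a probe, 1 probe each among 25697 probes of 16593 genes, and no probe was annotated to Stfa2l1 or BC100530. The RNA was that of splenic Gr1+ cells, isolated on magnetic beads from pools of female C57BL/6 mice aged 6 to 8 weeks, with spleens taken at 48 h. In the first group, LPS (lipopolysaccharide, an endotoxin of Gram-negative bacteria) was given into the peritoneum, followed 30 min later by intravenous HY209 (sodium taurodeoxycholate, a bile salt). This is called the HY209 group (3 arrays, titled LT). The second received LPS and then PBS (the LPS group, 3 arrays), and the third received PBS at both steps (the PBS group, 2 arrays, titled 1 and 3, of which PBS 3 is numbered 2 in its description). The labels name no mutation or transgene, and no group received HY209 without LPS.

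Cystatins block papain-like proteases by lodging in the active site cleft. Stefins and cystatin B lack a signal peptide and act inside the cell, while cystatin C is secreted and inhibits cathepsins outside cells and along the secretory route. In mice the A-type stefins form a family of close copies on 1 chromosome and are known from neutrophils and other myeloid cells, cystatin B is found in most cells, and cystatin C is known as a product of macrophages and dendritic cells. The usual targets are cathepsins B, C, H, L and S. Cystatin C also inhibits legumain.

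In the RefSeq annotation (GRCm38.p6), 12 neighbouring protein-coding genes on chromosome 16 make up the stefin cluster, in the order Csta1, Stfa2l1, Cstdc4, Csta3, Csta2, Stfa1, Cstdc3, Cstdc6, Cstdc5, Gm7260, Stfa2 and Stfa3. Of these, 8 had a probe. Cstb lies on chromosome 10 and Cst3 on chromosome 2. The 250 bases before the annotated start, from RefSeq, are shown for the genes whose levels are compared below, because the stefins with close copies of this stretch include genes that rose and one that stayed at background. Of the 7 genes, 5 had such an entry (Stfa1, Stfa2, Stfa3, Stfa2l1 and Cst3), and Cstb and BC100530 are named only. Capitals mark TTTAAA, which resembles the TATA box, and GGGCGG, known as the GC box. Either strand was searched, so the GC box can read CCGCCC. The windows are chr16:36408364-36408613 on the minus strand for Stfa2, chr16:36276898-36277147 on the plus strand for Stfa1, chr16:36455393-36455642 on the minus strand for Stfa3, chr16:36183962-36184211 on the plus strand for Cstdc4, chr16:36221312-36221561 on the plus strand for Csta2 and chr2:148875513-148875762 on the minus strand for Cst3.
Stfa2 upstream window: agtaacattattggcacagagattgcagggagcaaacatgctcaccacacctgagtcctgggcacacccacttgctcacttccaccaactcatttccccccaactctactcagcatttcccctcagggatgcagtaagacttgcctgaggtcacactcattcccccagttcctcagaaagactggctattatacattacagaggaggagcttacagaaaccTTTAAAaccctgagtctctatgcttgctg
Stfa1 upstream window: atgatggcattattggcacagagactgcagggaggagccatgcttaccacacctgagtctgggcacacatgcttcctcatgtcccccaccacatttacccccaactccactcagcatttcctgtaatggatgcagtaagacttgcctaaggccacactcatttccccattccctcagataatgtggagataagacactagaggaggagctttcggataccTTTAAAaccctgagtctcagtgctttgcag
Stfa3 upstream window: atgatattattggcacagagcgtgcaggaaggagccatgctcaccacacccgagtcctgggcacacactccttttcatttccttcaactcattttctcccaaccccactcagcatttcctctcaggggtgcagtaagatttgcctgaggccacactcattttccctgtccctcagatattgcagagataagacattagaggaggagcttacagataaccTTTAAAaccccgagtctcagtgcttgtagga
Cstdc4 upstream window: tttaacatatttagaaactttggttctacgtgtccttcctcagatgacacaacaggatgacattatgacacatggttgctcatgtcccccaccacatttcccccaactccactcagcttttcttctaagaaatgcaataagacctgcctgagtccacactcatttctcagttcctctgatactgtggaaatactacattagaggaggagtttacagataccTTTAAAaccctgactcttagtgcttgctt
Csta2 upstream window: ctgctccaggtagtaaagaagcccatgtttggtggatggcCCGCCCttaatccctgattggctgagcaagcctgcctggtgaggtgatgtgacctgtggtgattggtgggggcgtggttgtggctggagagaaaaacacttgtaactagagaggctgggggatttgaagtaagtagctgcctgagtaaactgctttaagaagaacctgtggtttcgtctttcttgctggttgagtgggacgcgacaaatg
Cst3 upstream window: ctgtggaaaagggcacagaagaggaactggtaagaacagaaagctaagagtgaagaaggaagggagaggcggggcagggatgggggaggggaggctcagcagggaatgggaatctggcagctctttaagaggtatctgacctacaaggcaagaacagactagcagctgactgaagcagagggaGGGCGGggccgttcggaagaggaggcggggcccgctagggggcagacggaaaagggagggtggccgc

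The windows of Stfa1, Stfa2, Stfa3 and Stfa2l1 were 80.4% to 89.4% identical in global alignment. Neighbours in the cluster shared this: the window of Cstdc5 was 81.2% identical to that of Stfa1, that of Cstdc4 72.3% and that of Cstdc3 69.3%. Against 32525 other windows of the same length, that of Stfa1 had a median identity of 49.1%, and the highest value outside the cluster was 57.9%. The windows of Cst3 and Csta2 were 44.4% and 47.2% identical to it, below that median. TTTAAA stood in 6 of the 8 windows searched (Stfa1, Stfa2, Stfa3, Stfa2l1, Cstdc4 and Csta3) and in 12.08% of all 32851 windows. Its first base lay 30 bases before the start in Stfa1, 29 in Stfa2, 31 in Stfa3, 33 in Stfa2l1 and 29 in Cstdc4, but 77 in Csta3. GGGCGG stood in the Csta2 and Cst3 windows and in 32.74% of all windows. Of the other motifs searched on both strands, GAGGAA, the core of PU.1 sites, was in 6 of the 8 (all but Csta3 and Csta2) and in 23.25% of all windows. TTNNGNAA, as in C/EBP sites, was in 5 of the 8 (Stfa1, Stfa2, Stfa2l1, Cstdc4 and Csta3) and in 36.85% of all. The NF-kB core searched was GGG and CC with any 5 bases between them. It was in 3 of the 8 (Stfa1, Stfa2 and Cst3) and in 45.8% of all. Cst3 had 2 such sites, of which that 67 to 58 bases before the start overlaps the GC box.

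Intensities below are the deposited, quantile-normalized values on a linear scale. Folds and log2 changes come after background correction and so need not equal the ratio of the intensities. Errors of intensities are SDs within a group (n = 3, or 2 for PBS), errors of log2 changes are standard errors of the fit, and the adjusted p is from limma with Benjamini-Hochberg adjustment over the 14786 probes kept. A probe counted as above background over an intensity of 168.6. The p-values measure only the spread between these arrays, because nothing in the labels ties an array to a spleen pool of its own (pools of 10 to 15 and of 30 to 40 spleens are both given). Over all genes tested the median log2 change lay between -0.01 and 0.00 in each comparison. The sorted cells were labelled as more than 95% CD11b+, but the PBS arrays held signal for other cell types, with values given beside the results.

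Stfa2, a stefin A of myeloid cells, stood near background in PBS and far above it after LPS. Its probe (ILMN_2736774) read 3024, 2385 and 2256 on the HY209 arrays, 2407, 2082 and 2305 on the LPS arrays, and 171 and 160 on the PBS arrays. Every array with LPS lay above both PBS arrays, and 1 of the 2 PBS arrays was above background. Stfa2 rose 22.4-fold in LPS against PBS (log2 change 4.49 ± 0.13, adjusted p = 2.9e-10) and 25.2-fold in HY209 against PBS (4.66 ± 0.13, adjusted p = 2.1e-10). Both comparisons use the same PBS arrays. As the PBS level lies at background, the fold depends on the background correction, and without it the fold was 13.7 in LPS against PBS and 15.3 in HY209 against PBS.

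Stfa1, another stefin A of the cluster, was above background in every group and rose after LPS. Its probe (ILMN_2988931) read 6784, 4756 and 5560 on the HY209 arrays, 5146, 5377 and 5203 on the LPS arrays, and 853 and 744 on the PBS arrays. The HY209 and LPS arrays overlapped, and both lay above the PBS arrays. Stfa1 rose 7.10-fold in LPS against PBS (2.83 ± 0.14, adjusted p = 1.4e-08) and 7.65-fold in HY209 against PBS (2.93 ± 0.14, adjusted p = 1.4e-08).

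Stfa3, the stefin at the end of the cluster, was not above background on any of the 8 arrays. Its probe (ILMN_2725608) read 144, 152 and 142 on the HY209 arrays, 148, 152 and 162 on the LPS arrays, and 134 and 159 on the PBS arrays. The groups overlapped. The probe failed the filter on dim probes, so no change is given for Stfa3. Its upstream window, shown above, is 83.5% identical to that of Stfa1 and 80.4% to that of Stfa2.

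Cystatin B (Cstb, probe ILMN_2700715), the intracellular inhibitor of most cell types, read 34768, 34878 and 36650 on the HY209 arrays, 40676, 37879 and 38998 on the LPS arrays, and 16374 and 16881 on the PBS arrays. The HY209 arrays lay below all LPS arrays and above both PBS arrays. Cstb rose 2.36-fold in LPS against PBS (1.24 ± 0.09, adjusted p = 3.1e-07) and 2.14-fold in HY209 against PBS (1.09 ± 0.09, adjusted p = 1.2e-06).

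Cystatin C (Cst3, probe ILMN_1257575), the secreted inhibitor, moved the other way. It read 17482, 20621 and 18040 on the HY209 arrays, 17539, 18436 and 18541 on the LPS arrays, and 25899 and 25449 on the PBS arrays. The HY209 and LPS arrays overlapped, and all of them lay below both PBS arrays. Cst3 fell 1.41-fold in LPS against PBS (-0.50 ± 0.10, adjusted p = 0.0011) and 1.38-fold in HY209 against PBS (-0.46 ± 0.10, adjusted p = 0.0024).

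**Figure D1:**
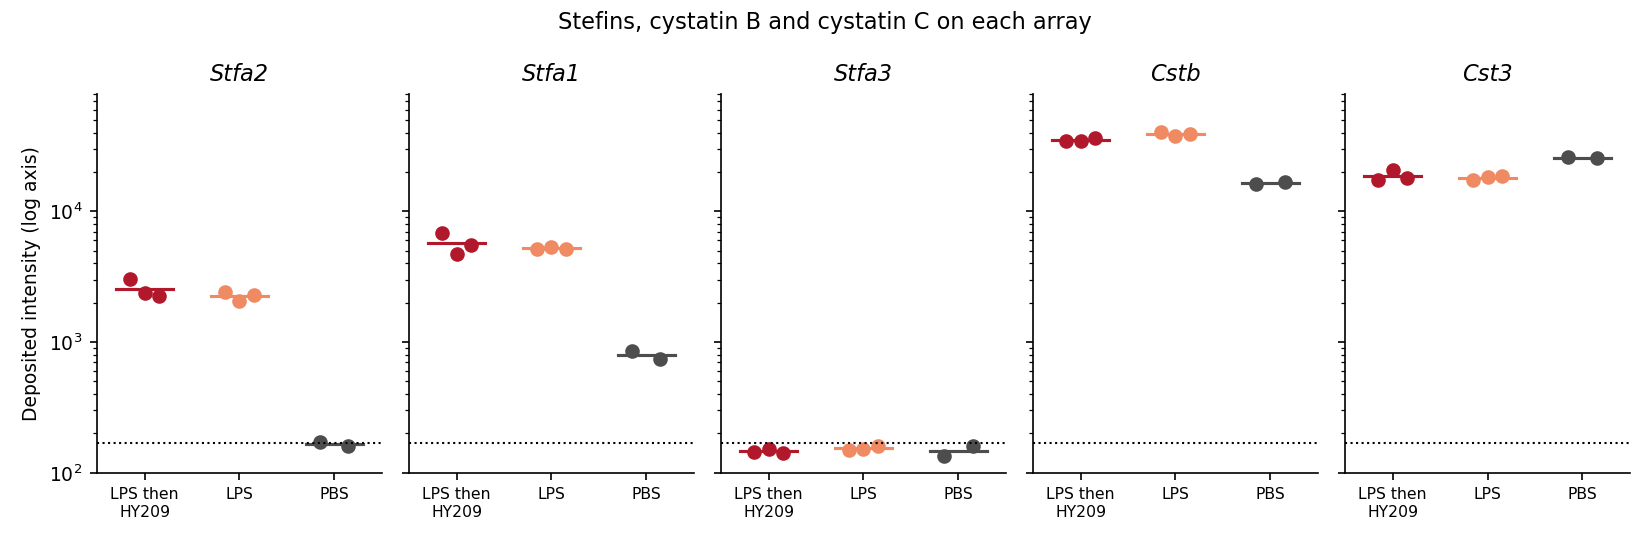
Deposited intensity (log axis) of the 5 genes with a probe, by group, with 1 point for each array and a bar at the group mean. The dotted line is the background threshold of 168.6. Stfa2, Stfa1 and Cstb lay higher on every array with LPS than on the PBS arrays, Cst3 lay lower, and Stfa3 stayed under the line.

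Of the 5 genes with a probe, 4 passed the filter on dim probes. In LPS against PBS, 3 of these were higher and 1 was lower, while 54.4% of all 10252 genes passed the test, 25.0% as higher and 29.4% as lower. In HY209 against PBS the counts were again 3 higher and 1 lower, where 46.4% of all genes passed, 21.0% as higher and 25.4% as lower. Stfa2 passed the filter only through the arrays with LPS, so the filter had a part in its call. For all 4, the arrays did not overlap in either comparison. The same held for 71.1% of all genes in LPS against PBS (33.8% higher and 37.3% lower) and for 64.6% in HY209 against PBS (30.8% higher and 33.8% lower).

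The neighbours of the stefins on chromosome 16, which are related to them in sequence, divided in the same way into genes that rose and genes at background. Cstdc4 and Csta3 come from the list of cystatin superfamily genes given below. Csta1, Csta2 and Cstdc6, the other cluster genes with a probe, were added after their values were seen. Cstdc4 (probe ILMN_2995688, also named Gm5483) read 17583, 17539 and 18243 on the HY209 arrays, 19034, 17963 and 19316 on the LPS arrays, and 5441 and 5103 on the PBS arrays. Csta3 (probe ILMN_2794741, also named Gm5416) read 2123, 1983 and 2163 on the HY209 arrays, 2326, 2062 and 2260 on the LPS arrays, and 687 and 661 on the PBS arrays. In both, every array with LPS lay above the PBS arrays. Cstdc4 rose 3.59-fold in LPS against PBS (1.85 ± 0.09, adjusted p = 1.4e-08) and Csta3 3.54-fold (1.82 ± 0.10, adjusted p = 2.6e-08), and against PBS they rose 3.41-fold and 3.33-fold in the HY209 group.

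Csta2 (probe ILMN_1234774), whose upstream window has neither the TTTAAA motif nor the close sequence of its neighbours, rose as well. It read 709, 653 and 745 on the HY209 arrays, 812, 725 and 917 on the LPS arrays, and 133 and 141 on the PBS arrays. Both PBS arrays were below background, so its change is a bound, computed from the deposited values against the background threshold. Csta2 was at least 4.83-fold higher in LPS than in PBS and at least 4.16-fold higher in HY209 than in PBS. These bounds were not tested themselves. The adjusted p from limma, 1.1e-09 in LPS against PBS and 2.4e-09 in HY209 against PBS, is that of the fitted background-corrected change. That fitted change rests on PBS values below background. Csta1 and Cstdc6 were below background on all 8 arrays, at 124 to 143 and 145 to 149 on the HY209 arrays, 147 to 156 and 139 to 151 on the LPS arrays, and 138 to 150 and 145 to 152 on the PBS arrays. So 5 of the 8 cluster genes with a probe were tested and all 5 passed as higher in LPS against PBS, where 25.0% of all genes did, and 3 of the 8 (Stfa3, Csta1 and Cstdc6) were at background in every group. Csta2, like Stfa2, passed the filter only through the arrays with LPS. The cluster holds genes related in sequence. How far a probe also binds the RNA of a neighbour was not tested, since probe sequences are not used here. Levels of single stefins are uncertain to that extent.

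**Figure D2:**
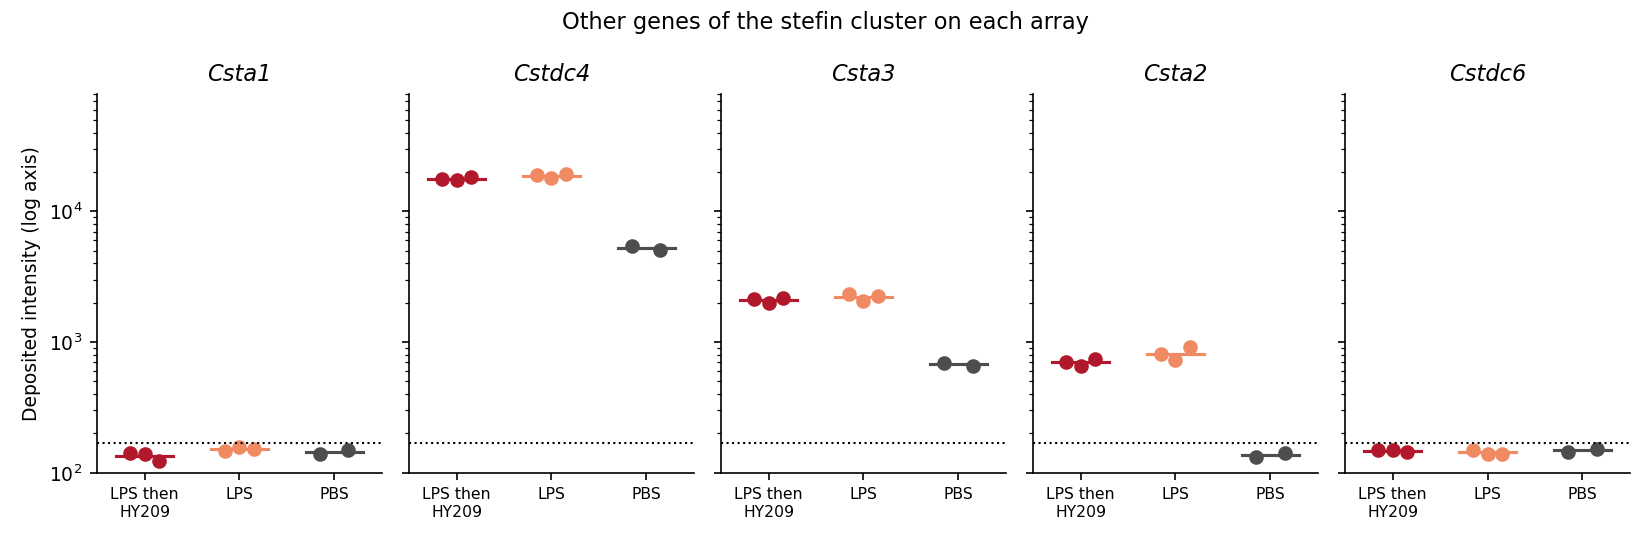
Deposited intensity (log axis) of the other 5 cluster genes with a probe, by group, with 1 point for each array and a bar at the group mean. The dotted line is the background threshold of 168.6. Cstdc4, Csta3 and Csta2 lay higher on all 6 arrays with LPS than on the PBS arrays, and Csta1 and Cstdc6 stayed under the line.

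The comparison of HY209 with LPS alone asks what the bile salt adds in mice given LPS. None of the 4 tested genes passed, where 8.11% of all genes did (5.29% as higher and 2.82% as lower). The log2 change was 0.17 for Stfa2 (95% interval -0.09 to 0.43, adjusted p = 0.43), 0.11 for Stfa1 (-0.16 to 0.38, adjusted p = 0.65) and 0.04 for Cst3 (-0.15 to 0.23, adjusted p = 0.84). The intervals leave room for a change of either sign. Cstb had -0.15 (-0.32 to 0.03, adjusted p = 0.30), and it alone of the 4 had arrays that did not overlap, all HY209 arrays being lower. Without overlap were 29.2% of all genes, 14.5% as higher and 14.7% as lower. In the cluster, Cstdc4 had -0.08 (-0.25 to 0.10, adjusted p = 0.61), Csta3 had -0.09 (-0.27 to 0.10, adjusted p = 0.59) and Csta2 had -0.24 (-0.47 to 0.00, adjusted p = 0.22).

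**Figure D3:**
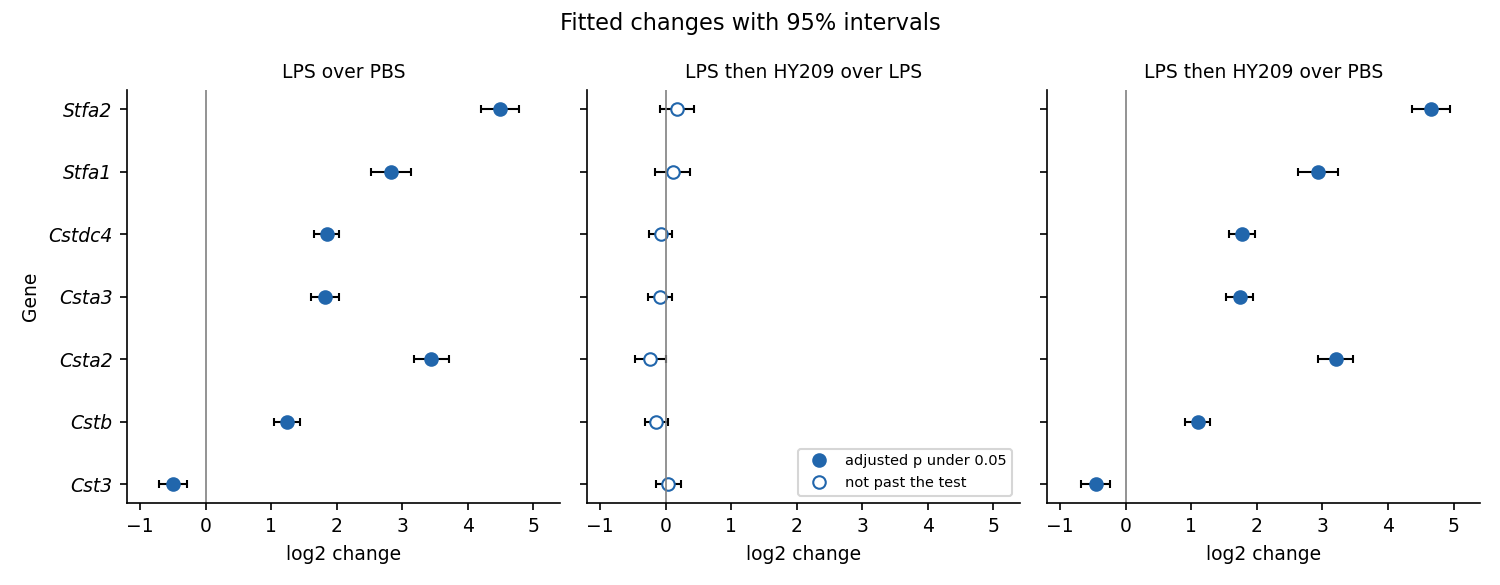
Log2 change on the background-corrected scale for the tested genes in the 3 comparisons, with 95% intervals from the fit. Points are filled where the adjusted p is under 0.05, and the value of Csta2 against PBS is the fitted one, not its bound. The changes against PBS run from 4.66 for Stfa2 to -0.50 for Cst3, and all changes of HY209 over LPS lie between -0.24 and 0.17.

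Stfa1 and Stfa2 varied more among the HY209 arrays than among the LPS arrays. The coefficient of variation of Stfa1 was 17.9% in HY209, 2.30% in LPS and 9.61% in PBS, and that of Stfa2 was 16.1%, 7.35% and 4.93%. HY209 1 was the highest of its group for both. Without HY209 1, the log2 change of HY209 against LPS was -0.028 for Stfa1 (adjusted p = 0.92) and 0.038 for Stfa2 (adjusted p = 0.89). Cst3 also varied more in HY209 (8.95%) than in LPS (3.03%) and PBS (1.24%), with HY209 2 its highest array. The other tested genes of the cluster and Cstb varied less in HY209 than in LPS. Csta2 had 6.58% in HY209 and 11.8% in LPS, Csta3 had 4.51% and 6.21%, Cstdc4 had 2.22% and 3.80%, and Cstb had 2.98% and 3.59%. HY209 1 was the highest HY209 array for 5 of 14 neutrophil markers, HY209 2 for 4 and HY209 3 for 5. The count for HY209 1 includes Lcn2, for which all 3 HY209 arrays tied at the highest intensity on the arrays (66399). These counts do not weigh the size of the differences.

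Within each array, the genes could be set against each other free of any factor that scales a whole array. Such a difference has no meaning as a level, as probes differ in brightness, but its shift between groups shows unequal change. Stfa2 minus Stfa1 was -1.18 ± 0.16 in HY209, -1.24 ± 0.14 in LPS and -2.90 ± 0.03 in PBS on the log2 scale, so Stfa2 rose more than Stfa1 by 1.66 in LPS against PBS. Without background correction the log2 changes of Stfa2 and Stfa1 were 3.77 and 2.72, in the same order. Stfa1 minus Cstb shifted by 1.59 and Cstb minus Cst3 by 1.74 in the same comparison, and the arrays did not overlap. Cstdc4 minus Csta3 overlapped between all groups, with 3.13 ± 0.05 in HY209, 3.12 ± 0.05 in LPS and 3.10 ± 0.02 in PBS. On the deposited scale it did not overlap, with 3.03 to 3.12 in LPS and 2.95 and 2.99 in PBS. In HY209 against LPS, Stfa2 minus Cstb shifted by 0.31, Cstdc4 minus Cstb by 0.068 and Cstb minus Cst3 by -0.18, all without overlap. Each of these pairs holds Cstb, whose own arrays did not overlap, so they are not separate results. Cstdc4 minus Cstb was parted narrowly (lowest HY209 array -1.009, highest LPS array -1.016). Stfa1 minus Cstb shifted by 0.25, with overlap. Exact permutation tests (two-sided, 21 tests over 7 pairs) cannot pass here. The smallest p the arrays allow is 0.2 against PBS and 0.1 for HY209 against LPS. The tested shifts without overlap reached it, and the lowest adjusted p was 0.25.

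**Figure D4:**
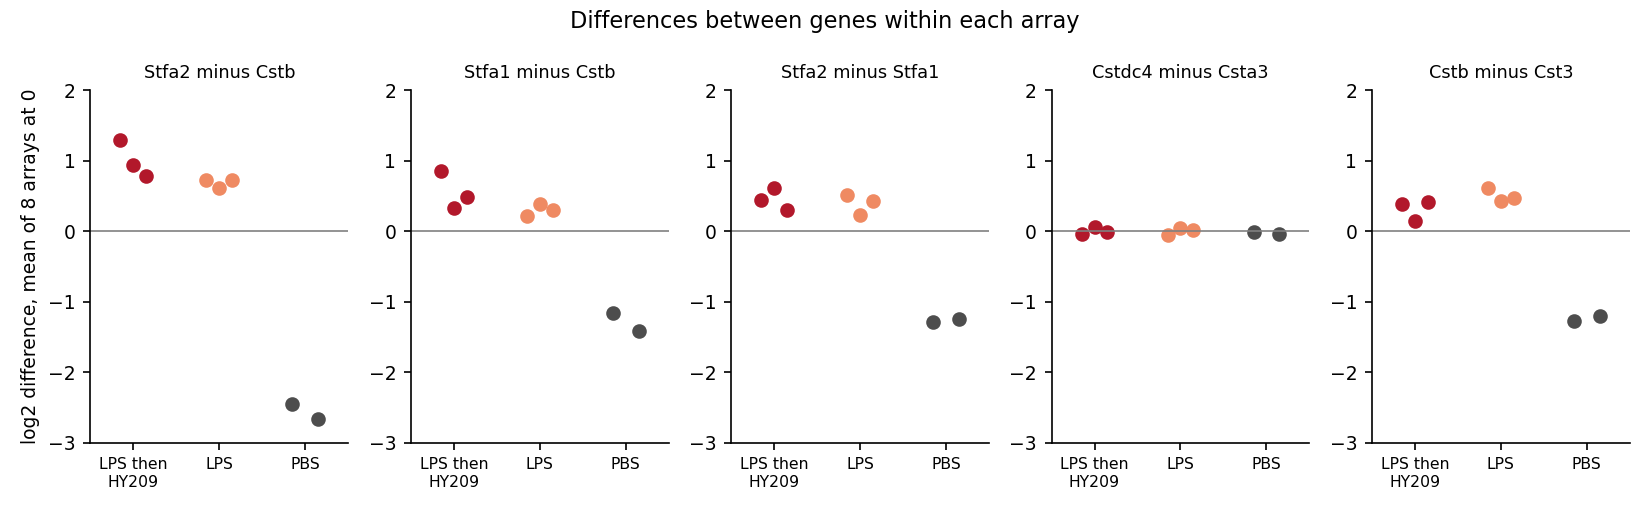
Difference of the log2 values of 2 genes on each array, with the mean over the 8 arrays set to 0 in each panel and 1 point for each array. The PBS arrays lie under all others for Stfa2 minus Cstb, Stfa1 minus Cstb, Stfa2 minus Stfa1 and Cstb minus Cst3, while Cstdc4 minus Csta3 is level across the groups.

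Markers of the cells that can carry these genes moved as well. Of 14 neutrophil markers, 8 rose and 2 fell in LPS against PBS (median log2 change 0.45, or 0.43 at bounds, that is with genes below background in a group set to their bound), where 25.0% and 29.4% of all genes did. The fall of Csf3r rests on 1 of 4 probes, and a dimmer probe of Ltf fell (-1.86, adjusted p = 2.0e-05) while the probe counted did not pass. Their summed intensity over the 14 was 435070 to 449354 in HY209, 446646 to 461905 in LPS and 350994 to 352930 in PBS. Ly6g, which encodes part of the Gr1 antigen, had no probe. Of 12 macrophage markers, 1 rose and 10 fell in LPS against PBS (median -1.45), with sums of 35905 to 40294 in HY209, 47934 to 51320 in LPS and 191379 to 195648 in PBS. A further fall in HY209 against LPS was seen for 6 of the 12, where 2.82% of all genes passed as lower. Of 3 monocyte markers, 1 rose and 2 fell (median -1.03). All 6 B cell and all 4 T cell markers tested fell (medians -2.30 and -1.82), as did 4 of 5 erythroid and 1 of 2 eosinophil markers (medians -1.45 and -2.04, the last -1.57 at bounds). In HY209 against LPS, 4 of 6 B cell and 4 of 5 erythroid markers rose, where 5.29% of all genes passed as higher. Dimmer probes of Fcer2a did not pass there (0.09 and 0.16, adjusted p = 0.74 and 0.47). A dimmer probe of Rhag rose (0.40, adjusted p = 0.017) while the probe counted did not pass. The B cell sum was 16686 to 18521 in HY209, 10908 to 11510 in LPS and 62213 to 63554 in PBS. Cd5l, Ccr2, Pax5, Cd8a, Epb42, Epx and Siglecf were below background on all arrays. The part of these shifts in the stefin and cystatin changes was not tested. In sorted pools, fewer cells of a type and less RNA per cell cannot be told apart.

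Among cysteine cathepsins and legumain, more genes fell than rose after LPS. Of the usual targets named above, only Ctsc and Ctsh passed, both as lower. Of 11 cysteine cathepsins and legumain, 10 were tested, with 2 rises and 6 falls in LPS against PBS, where 25.0% and 29.4% of all genes rose and fell. The median log2 change was -0.49, or -0.42 with genes under background in a group at their bound. Ctsc, the dipeptidyl peptidase that activates granule serine proteases, had 11043 ± 905 in HY209, 9612 ± 187 in LPS and 26282 ± 2013 in PBS, and fell 2.74-fold in LPS against PBS (-1.46 ± 0.10, adjusted p = 2.4e-07). Ctsw, a cathepsin of cytotoxic lymphocytes, fell by 1.41 ± 0.16 on the log2 scale, Ctsh, an aminopeptidase, by 0.69 ± 0.09 and legumain (Lgmn), an asparaginyl endopeptidase, by 0.61 ± 0.19. Ctso, another cathepsin, passed narrowly as lower (adjusted p = 0.049), with no LPS array and 1 of 2 PBS arrays above background, and was at least 1.07-fold lower. Ctsf was below background on every array with LPS and at least 1.55-fold lower there than in PBS. Ctsk, the collagen-degrading cathepsin, rose 1.93-fold (0.95 ± 0.12, adjusted p = 4.2e-05) and Ctsz, a carboxypeptidase, 1.32-fold (0.40 ± 0.13, adjusted p = 0.021). Ctsk stood at 265 ± 3.02 in LPS and 170 ± 5.37 in PBS, where 1 of 2 arrays was above background. The fold of Ctsk therefore depends on the background correction. Ctsb and Ctss did not pass, with -0.22 ± 0.11 and 0.25 ± 0.11, and Ctsl was below background on all arrays. In HY209 against PBS the counts were the same (2 rose and 6 fell, median -0.55, or -0.51 at bounds), where 21.0% of all genes rose and 25.4% fell. In HY209 against LPS none of the 10 passed (median -0.03), where 8.11% of all genes did.

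Of the 4 cathepsins that are serine or aspartic proteases, Ctsd and Ctse rose in LPS against PBS (0.57 ± 0.12 and 0.56 ± 0.12) and Ctsa fell (-0.84 ± 0.21). For Ctsa, 1 of 3 dimmer probes did not pass (-0.25, adjusted p = 0.051). Ctsg, a neutrophil granule protease, had 253 ± 18.5 in HY209, 202 ± 16.9 in LPS and 201 ± 9.78 in PBS. It was the one gene of both cathepsin lists past the test in HY209 against LPS (0.47 ± 0.11, adjusted p = 0.028).

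Among 20 other genes of the cystatin superfamily, 14 had a probe and 6 were tested. Besides Cstdc4 and Csta3, no gene of this list passed in any of the 3 comparisons. The median log2 change of the 6 was 0.20 in LPS against PBS, -0.13 in HY209 against LPS and 0.05 in HY209 against PBS, and the last was -0.00 at bounds. Cystatin F (Cst7), a cathepsin C inhibitor of leukocytes, had 602 ± 34.4 in HY209, 701 ± 54.7 in LPS and 612 ± 23.1 in PBS (0.22 ± 0.10 in LPS against PBS, adjusted p = 0.10). The fetuins Ahsg and Fetub, made by the liver, were below background on all arrays.

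Inhibitors of other protease classes moved both ways, in shares near those of all genes. Of 15 tested genes of this list, 5 rose and 4 fell in LPS against PBS, where 25.0% of all genes passed as higher and 29.4% as lower (median 0.02, or 0 with genes under background at their bound). Wfdc21 and Wfdc17, small secreted proteins with a whey acidic protein domain, rose 4.94-fold (2.31 ± 0.10, adjusted p = 4.1e-09) and 2.41-fold (1.27 ± 0.10). The metalloprotease inhibitor Timp1 rose 2.40-fold, the acute phase serpin Serpina3n 1.98-fold and the membrane-anchored inhibitor Reck by 0.71 on the log2 scale. Serpina3n stood at 273 ± 28.8 in LPS and 171 ± 16.5 in PBS, where 1 of 2 arrays was above background. Its fold therefore depends on the background correction. Serpinb6a, an intracellular serpin, fell 5.37-fold (-2.43 ± 0.11, adjusted p = 8.6e-09), Timp2 2.45-fold, Timp3 1.36-fold and Pi16 1.25-fold. Slpi, the leukocyte elastase inhibitor, did not pass and stood at 29897 ± 1072 in HY209, 31992 ± 854 in LPS and 32808 ± 964 in PBS. In HY209 against PBS, 6 rose and 3 fell (median 0.17, or 0.15 at bounds), where 21.0% and 25.4% of all genes did. The difference from LPS against PBS lay in Serping1, the complement C1 inhibitor, which rose in HY209 against PBS (0.44 ± 0.09, adjusted p = 0.0023), and in Timp3, which did not pass (-0.04 ± 0.12). In all, 3 of these genes passed in HY209 against LPS (median of the list 0.06, or 0 at bounds), where 5.29% of all genes rose and 2.82% fell. Serpina3n (0.64 ± 0.12, adjusted p = 0.010) and Timp3 (0.41 ± 0.11, adjusted p = 0.041) rose and Wfdc21 (-0.40 ± 0.09, adjusted p = 0.019) fell.

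**Figure D5:**
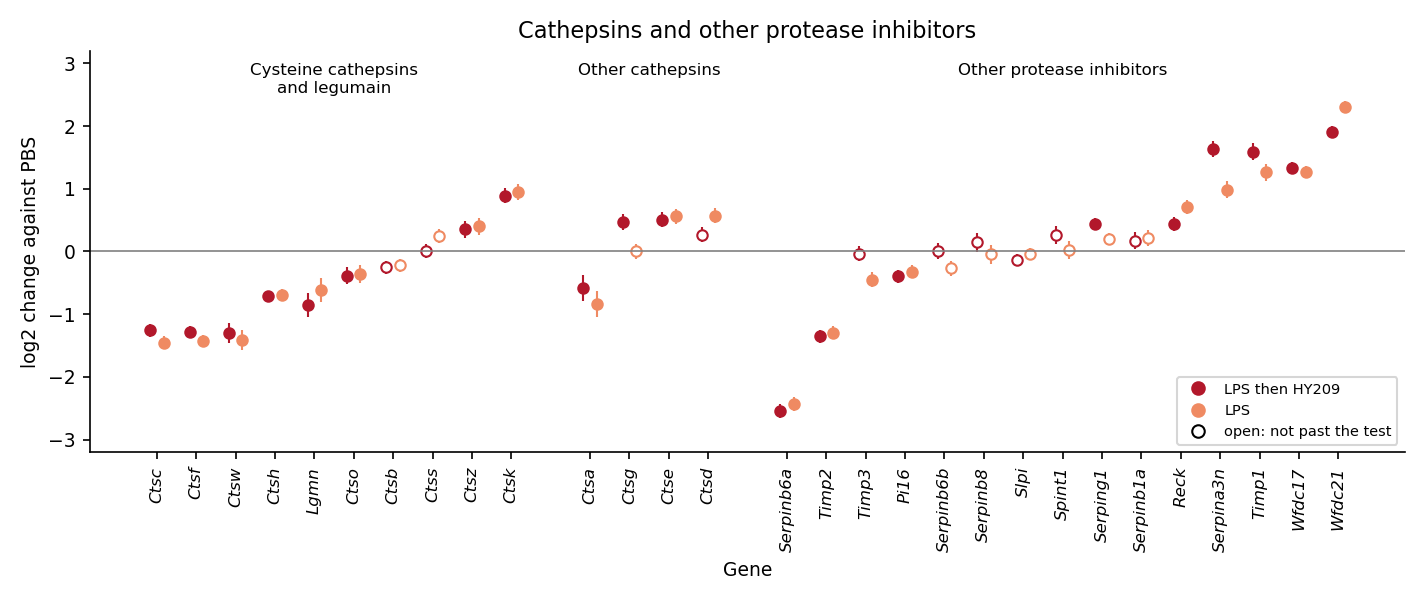
Log2 change against PBS, with the standard error, of the tested cathepsins and of inhibitors of other protease classes, in the HY209 and LPS groups. Filled points have an adjusted p under 0.05. Genes with a bound, such as Ctsf and, in the LPS group, Ctso, are shown at their fitted value, not their bound. Serpinb6a is lowest with -2.55 and -2.43, and Wfdc21 is highest with 1.91 and 2.31.

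The genes nearest in pattern were taken as those with the smallest root mean square difference in mean-centred log2 values over the 8 arrays, among all tested genes other than the 7. These are descriptions, and most of each pattern is the step between PBS and the arrays with LPS. Nearest to Stfa1 were Igfbp6 (0.13), Lacc1 (0.15), Cdkn1a (0.17), Il1r2 (0.19) and Dusp16 (0.19), against a median of 1.26 over all genes. Nearest to Cstb were Csnk1d (0.04), Cmpk2 (0.04), Lgals9 (0.05), St3gal6 (0.06) and Cebpb (0.06), with a median of 0.53. Nearest to Cst3 were C2cd3 (0.04), Dock1 (0.05), Tmem229b (0.05), Arhgef18 (0.05) and Plcg2 (0.05), with a median of 0.28.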

How the data were processed

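The values used are the authors' deposited intensity per probe for 8 arrays, on a linear scale and quantile normalized by them, as the nearly equal quantiles of the columns show (largest difference 0.00946%), with no background subtraction. GenomeStudio 2011.1 and R 2.15.0 are named per the submitters' processing notes. A second table (16 columns) is not used, because its column names match no sample. On each array, 13047 of 25697 probes (50.8%) exceeded background, and precision is limited by how few arrays a group has.

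The intensities were background-corrected with normexp (offset 50), followed by quantile normalization and log2 in limma 3.58.1 (R 4.3.3). The background threshold of 168.6 comes from the mode of the intensities (148.3) and the spread below it (0.11 on the log2 scale). Probes above it on at least 2 arrays were kept (14786). Symbols were matched to RefSeq by Entrez identifier for 23962 probes, and 0 changed. All 8 arrays entered a single limma fit of the group means (lmFit and eBayes, two-sided, threshold 0.05, with 5 residual and 6.40 prior degrees of freedom) and was tested on simulated data. For gene lists and counts over genes, the brightest kept probe of each gene stands for it (10252 genes). Where no array of a group was above background, the fold is a bound, computed from the deposited values against the threshold. Upstream windows were aligned with Biopython 1.88.

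The members and lists were chosen with earlier results of these data known. Named are all 7 genes, of each list up to 6 genes past the test by size and all where 5 or fewer passed in a direction, and the 5 genes nearest in pattern. Ctsb, Ctss, Ctsl, Cst7, Ahsg, Fetub, Slpi, Csta1, Csta2 and Cstdc6 were added after their values were seen. Replicate numbers, taken from the titles, were not treated as pairs. Residuals correlated over 0.1 in 3 of 7 same-numbered pairs of arrays (range -0.20 to 0.33). Between HY209 and LPS the correlations were 0.05, 0.33 and 0.28 for numbers 1, 2 and 3. These values cannot decide whether the numbers mark pairs, as differently numbered arrays were not compared in this way. The alternatives were no background correction, the same scaled to the 75th percentile, no or a stricter filter on dim probes, 1 or averaged probes per gene, the replicate block (and, added after seeing the data, the block with PBS 3 numbered 2), limma-trend, fits on 2 groups and leaving out each array.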

Additional observations from a re-analysis of the deposited data

How the results depend on the processing

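Over 18 alternatives, 426 of 432 values (the 7 tested stefin and cystatin genes and the count of probes past the test, in 3 comparisons) kept their direction and their side of the threshold or stayed within 1.5 times of the count. Scaling to the 75th percentile without background correction gave the same values as leaving out the correction alone, so it adds nothing. Other alternatives could not alter a log2 change, as each of the 7 genes had 1 probe. These were both filter settings, 1 or averaged probes per gene, limma-trend, fits on 2 groups and leaving out an array of the group not compared. There only the adjusted p could differ, so the 432 values are not separate checks. In LPS against PBS the log2 change ranged from 3.77 to 4.57 for Stfa2, 2.72 to 2.93 for Stfa1, 1.21 to 1.26 for Cstb and -0.54 to -0.48 for Cst3, with an adjusted p of at most 0.014. The exceptions all lie in HY209 against LPS. There the log2 change of Stfa1 turned to -0.028 without HY209 1 and that of Cst3 to -0.033 without HY209 2, neither past the test before or after. The ranges with 1 array left out were -0.028 to 0.23 for Stfa1 and -0.033 to 0.087 for Cst3. The count of probes past the test, 1089 in this comparison, ranged from 331 to 1208 with 1 array left out, and was 331 without HY209 1, 455 without LPS 1, 715 without LPS 2 and 505 without LPS 3, where fewer arrays enter the fit. With 1 PBS array left out, the lone PBS array is assumed to vary like the other groups. With the replicate number as a block, 8081 probes passed in LPS against PBS and 1425 in HY209 against LPS, Stfa2 had 4.54 and Cst3 -0.54 in LPS against PBS, and no call of the 7 genes changed. With PBS 3 numbered 2 in the block, an alternative chosen after seeing the data, 8018 and 1519 probes passed, with 4.52 for Stfa2 and -0.50 for Cst3, and again no call of the 7 genes changed. Normalization from the second table was not run, as its columns could not be tied to samples. Signal at background limits Stfa2 and Csta2 in PBS and leaves Stfa3 without a value.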
